A study of Mus musculus with 14 samples.

Results

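Open chromatin early in hypoxia was compared with open chromatin late in hypoxia in 4T1 cells, a mouse breast cancer cell line. The early lists of accessible regions came from cells kept for 6 h or 12 h at low oxygen, and the late lists from cells kept there for 48 h or 72 h. Overlapping peaks of these 4 lists were merged into 98212 regions. A region was called early-only when it held a peak at 6 h and at 12 h and none at 48 h or 72 h, and 1226 regions met this rule. A region was called late-only when it held a peak at 48 h and at 72 h and none at 6 h or 12 h, and 2841 regions met it. A further 39795 regions held a peak in all 4 lists and are called shared, and the remaining 54350 regions fell into other patterns.

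The study profiled 14 samples in 7 groups of 2 by ATAC-seq on fixed cells. The groups were a normoxic culture and cultures held in a hypoxia workstation at 1% O2 and 5% CO2 for 6, 12, 24, 36, 48 or 72 h. Cells in hypoxia were fixed before they left the workstation. The labels name no antibody for any group, while the study describes HIF1α staining in the same time course, so that whether the sequenced cells were stained cannot be told. All groups were the same cell line with no genetic change named in the labels, and the control culture, normoxic by its label, was kept at 5% oxygen in the protein staining of this time course. Each group had 1 peak list made from its pooled samples, and the labels do not say whether the samples of a group were separate cultures. Early and late were therefore compared as 2 lists against 2, with no replicate error and no test, and the intervals given are exact (Clopper-Pearson) 95% binomial intervals that cover counting error only. In a bulk culture a change in some of the cells cannot be told apart from a smaller change in all of them.

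In ATAC-seq the Tn5 transposase cuts DNA that is not wrapped in nucleosomes, so that peaks mark promoters, enhancers and other sites where regulatory proteins sit. When oxygen falls, the hydroxylases that mark hypoxia-inducible factor (HIF) alpha subunits for destruction slow down, and HIF binds its core motif near genes of glucose uptake, pH control and blood vessel growth. AP-1 (Fos and Jun dimers), C/EBP (CCAAT/enhancer-binding proteins) and FOX (forkhead proteins) are other families whose motifs mark enhancers in epithelial and stressed cells.

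The sequences below are the 201 bases around the strongest summit of 6 regions among the strongest of the comparison. They were chosen for holding a motif. AP-1 was sought in early-only regions and C/EBP in late-only ones, since these motifs differed in share between both kinds as a whole. Banf2 is shown as an example of a HIF core in a strong region. Among the 10 strongest regions, AP-1 lay in 3 early-only and 3 late-only ones, and C/EBP in 0 and 2, so that AP-1 did not differ there. The sequences are read on the plus strand of the mm9 build, and the capitals mark the motif. The 3 early-only windows lay near Cldn2 (chrX:136328720-136328920), within Fbxl2 (chr9:113913488-113913688) and near Cox18 (chr5:90508264-90508464), and each held 1 AP-1 motif (TGACTCA on either strand) 30 to 39 bp from the summit.
Cldn2: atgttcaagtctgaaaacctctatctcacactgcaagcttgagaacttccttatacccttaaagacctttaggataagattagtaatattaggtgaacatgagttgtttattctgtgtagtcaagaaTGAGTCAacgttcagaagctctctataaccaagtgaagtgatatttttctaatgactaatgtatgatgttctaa
Fbxl2: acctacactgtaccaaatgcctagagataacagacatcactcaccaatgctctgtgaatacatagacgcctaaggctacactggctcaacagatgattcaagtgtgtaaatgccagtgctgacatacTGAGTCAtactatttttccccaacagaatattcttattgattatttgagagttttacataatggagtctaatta
Cox18: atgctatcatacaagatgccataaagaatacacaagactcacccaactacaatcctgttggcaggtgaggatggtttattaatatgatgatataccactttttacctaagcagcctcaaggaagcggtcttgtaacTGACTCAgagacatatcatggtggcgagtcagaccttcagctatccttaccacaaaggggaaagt

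The 3 late-only windows lay near BC005537 (chr13:24883320-24883520), near Trpv6 (chr6:41593338-41593538) and near Banf2 (chr2:143949202-143949402). BC005537 held 1 C/EBP motif (TTGCNNAA on either strand, where N is any base), Trpv6 held 2, and Banf2 held a longer HIF core (TACGTG on either strand) centred 3.5 bp from the summit.
BC005537: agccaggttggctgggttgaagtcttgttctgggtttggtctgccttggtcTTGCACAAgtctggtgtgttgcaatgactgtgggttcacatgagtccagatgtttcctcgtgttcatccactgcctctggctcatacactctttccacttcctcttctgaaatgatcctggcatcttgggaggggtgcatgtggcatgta
Trpv6: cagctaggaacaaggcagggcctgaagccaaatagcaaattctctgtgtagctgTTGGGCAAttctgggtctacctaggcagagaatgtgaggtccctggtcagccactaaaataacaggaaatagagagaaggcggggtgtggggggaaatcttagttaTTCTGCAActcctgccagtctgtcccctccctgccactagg
Banf2: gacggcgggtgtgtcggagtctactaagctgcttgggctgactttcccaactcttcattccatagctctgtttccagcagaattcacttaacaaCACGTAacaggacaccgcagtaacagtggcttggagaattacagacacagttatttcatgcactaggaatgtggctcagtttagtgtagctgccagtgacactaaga

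Early-only regions were 1.25% of the 98212 merged regions and late-only regions 2.89%. Most regions did not separate early from late: 40.5% were shared, and the next largest pattern was a peak at 12 h alone, in 14375 regions. The 12 h list also joined the late lists more often than it stood with the 6 h list. A peak at 12, 48 and 72 h but not at 6 h was found in 10997 regions, against 1226 with a peak at 6 h and 12 h alone. Of the 44678 regions with a peak in both early lists, 2.74% had no late peak. Of the 53925 regions with a peak in both late lists, 5.27% had no early peak.

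**Figure D1:**
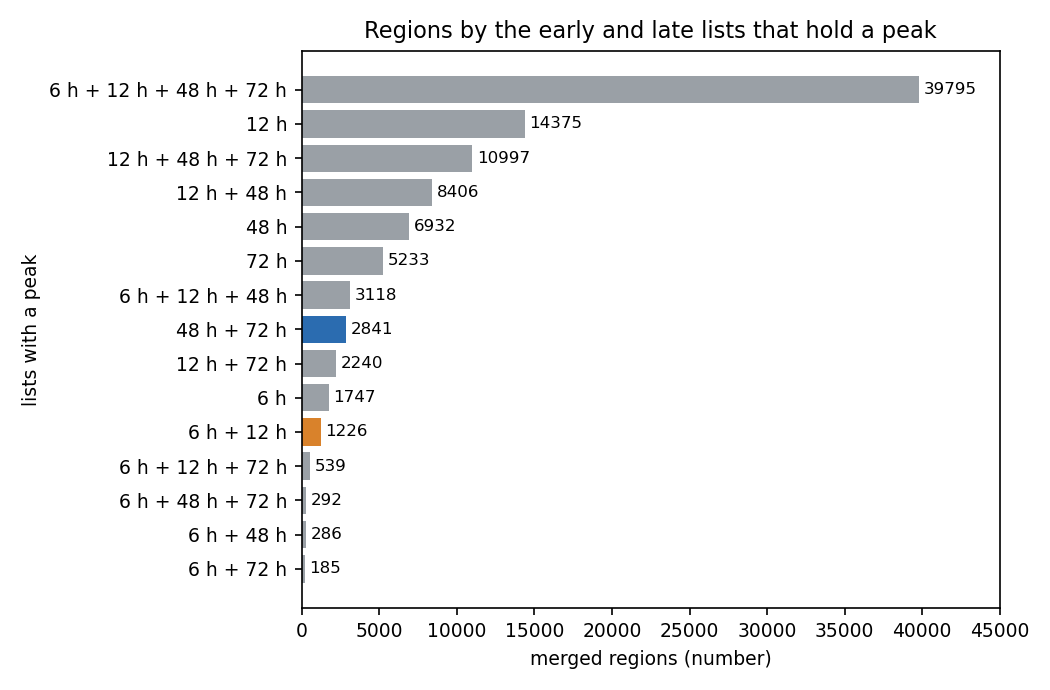
Number of merged regions (x axis) for each combination of the 4 lists that holds a peak (y axis), with early-only regions in orange, late-only regions in blue and all other patterns in grey. The shared pattern holds 39795 regions, late-only 2841 and early-only 1226.

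The lists differed in length and in background, and both move with these counts. The 6 h list held 49006 peaks, the 12 h list 81732, the 48 h list 74284 and the 72 h list 64083. The lowest background recovered at a summit was 3.25 reads at 6 h, 2.34 at 12 h and 2.52 at both 48 h and 72 h. At that background a peak needed at least 11, 8, 9 and 9 reads at 6, 12, 48 and 72 h. The 6 h list was therefore the shortest list and the one with the highest bar in reads, and by the rule a late-only region has no peak in it. In fold enrichment its bar was not the highest, with a lowest call of 2.82 at 6 h, 2.69 at 12 h and 2.84 at both 48 h and 72 h. When only the 40000 strongest peaks of each list were kept, 1608 regions were early-only and 1633 late-only, so that the excess of late-only regions was not seen at equal list length. Without the 6 h list, 15628 regions had a peak at 12 h and in neither late list and 3140 the reverse, which turned the order. Without the 12 h list the counts were 3096 and 14006, without the 48 h list 4375 and 8228, and without the 72 h list 1765 and 9879.

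Both groups of regions were weak compared with the shared ones. The median −log10 q, the peak caller's adjusted significance on a log scale, was 3.82 and 5.53 at 6 and 12 h in early-only regions, and 4.49 and 4.29 at 48 and 72 h in late-only regions. In shared regions it was 12.5, 29.4, 24.6 and 16.5 at 6, 12, 48 and 72 h. The weaker of a member's 2 values ran from 1.35 to 16.7 over early-only regions and from 1.31 to 15.8 over late-only regions, beside a limit of about 1.3 in the lists. Members at the low end were thus just inside the limit, and 220 early-only regions (17.9%) and 575 late-only regions (20.2%) reached 5 in both of their lists. The median summit held 16 reads in both early lists and 15 reads in both late lists. In the lists where the peak was missing, the lowest fold called was taken among summits at the lowest background. The higher of the 2 lists gave 2.84 for early-only and 2.82 for late-only regions. In 84.1% of early-only and 89.2% of late-only regions, the fold enrichment over background in both lists was at least that. The same check in summit reads gave the other order. At least 9 reads in both lists were held by 99.0% of early-only regions, and at least 11 by 87.2% of late-only regions. Lower folds were called at summits of higher background. A peak of an absent list lay within 1 kb of 19.4% of early-only and 17.1% of late-only regions.

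The normoxia, 24 h and 36 h lists played no part in choosing the regions. Early-only regions were open before hypoxia far more often than late-only regions: 521 of 1226 (42.5%, interval 39.7 to 45.3%) held a normoxia peak, against 408 of 2841 (14.4%, 13.1 to 15.7%). Over all merged regions the share was 55.7%, and over shared regions 93.9%. At 24 h the shares were 54.4% of early-only and 36.9% of late-only regions, beside 66.2% of all regions. At 36 h they were close, 33.7% and 33.9%, beside 58.4% of all regions. Thus early-only regions shared more peaks with normoxia and 24 h than late-only regions did, and at 36 h the intervals overlapped (31.0 to 36.4% and 32.1 to 35.6%). The order in normoxia and at 24 h was the same under all 4 alternative settings tried, with normoxia shares of 55.1% and 30.6% at equal list length. Leaving lists out was not among these settings. A normoxia peak was held by 6.53% of the 1747 regions at 6 h alone. It was held by 54.7% of the 10997 regions at 12, 48 and 72 h. Without the 12 h list these would count as early and as late, so that the order depends on the 12 h list.

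**Figure D2:**
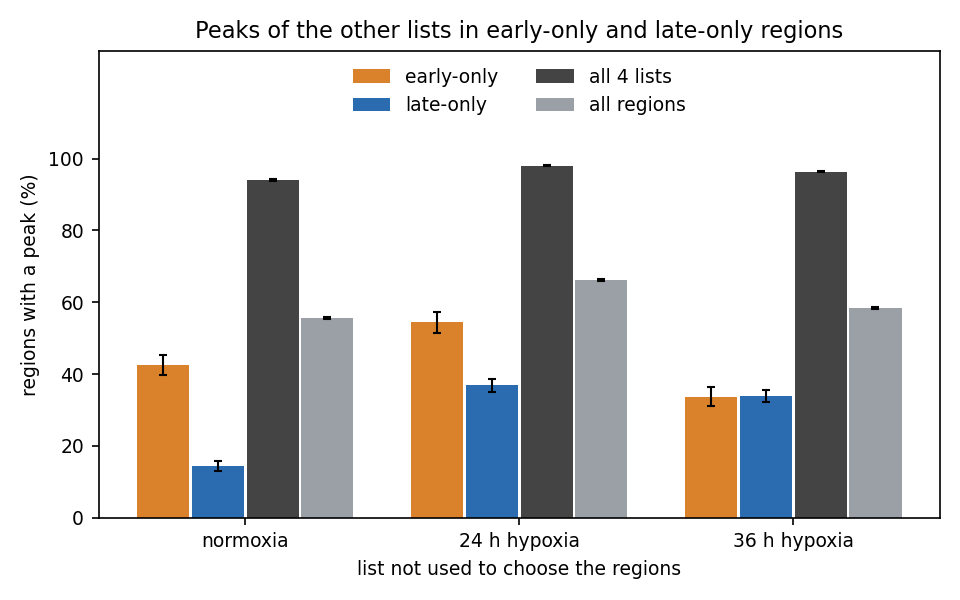
Percentage of regions with a peak (y axis) in the normoxia, 24 h and 36 h lists (x axis), for early-only, late-only, shared (all 4 lists) and all merged regions; bars are shares and error bars exact 95% binomial intervals for counting error. In normoxia 42.5% of early-only and 14.4% of late-only regions held a peak, and at 36 h 33.7% and 33.9%.

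The same contrast was seen in the combinations of the 3 lists. No peak in any of them was found for 1186 late-only regions (41.7%) and 322 early-only regions (26.3%), beside 24.8% of all regions. A peak in all 3 was found for 94 late-only regions (3.31%) and 179 early-only regions (14.6%), beside 45.4% of all regions. Both kinds were thus below the share of all regions. Among early-only regions the share with a normoxia peak was 63.1% in the strongest of 4 equal parts and 25.7% in the weakest. Among late-only regions it was 17.3% and 12.0%. The gap between both kinds was thus larger among strong regions.

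The 10 strongest early-only regions (best mean rank of −log10 q over both early lists) were intronic or intergenic, and all 10 held a peak in normoxia and at 24 h as well. They lay within or nearest to Gm2792, Rims4, Cldn2, Klhl29, Tmtc4, Mettl15, Sp100, Gas2l3, Fbxl2 and Cox18. The first, in an intron of Gm2792 (chr17:6519799-6520325), had a −log10 q of 5.02 in normoxia and then 12.9, 18.8, 7.60 and 1.97 at 6, 12, 24 and 36 h. It was highest in the early lists and near the limit by 36 h. The region 20889 bp from Rims4, a gene of the RIM family of presynaptic proteins (chr2:163765308-163765725), had 4.04, 20.0, 16.7, 19.1 and 2.62 in the same lists, and so stayed high to 24 h. The region near Cldn2, which encodes the tight junction protein claudin-2 (chrX:136328597-136329048), had 10.1, 8.63, 22.7, 8.05 and 5.73. Its sequence, with 1 AP-1 motif, is the first printed above. Here the 6 h value was below that of normoxia, and the 12 h value was the highest.

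Intronic regions near the start of Sp100 and Gas2l3 were among them. The region in Sp100, a nuclear body protein (chr1:87588854-87589295), had a −log10 q of 6.05 in normoxia and then 7.71, 23.2 and 11.5 at 6, 12 and 24 h. It was not called in the 36 h list. The region in Gas2l3, a linker of actin and microtubules (chr10:88904680-88905082), had 2.88, 7.67, 23.1, 12.2 and 8.89 from normoxia to 36 h. Across the 10 regions the 12 h value ran from 16.2 to 23.2 and the 6 h value from 7.17 to 20.0. Only the Rims4 region was higher at 6 h than at 12 h. Such values also differ between whole lists, with a median of 12.5 at 6 h and 29.4 at 12 h over shared regions. By fold enrichment the Rims4 region had 7.76, 8.08 and 9.49 at 6, 12 and 24 h, and so was not higher at 6 h. From normoxia to 6 h the fold of the Sp100 region fell from 5.71 to 4.86, while that of the Gas2l3 region rose from 2.61 to 3.55.

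The 10 strongest late-only regions were different in the lists not used: 2 held a normoxia peak, 7 a 24 h peak and 9 a 36 h peak. The strongest lay at the promoter of Eef1a1, a translation elongation factor (chr9:78328521-78328996). Its −log10 q was 29.9, 28.3, 25.5 and 15.8 at 24, 36, 48 and 72 h, from 97, 83, 96 and 66 reads, and it was not called in normoxia or in the early lists. It was thus highest before the late lists. Of 3 other promoter regions of Eef1a1, 2 were shared. This gene has many near-identical copies in the genome, and sharing of reads between them was not tested.

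The second lay in an intron of Nrp2, a co-receptor for vascular endothelial growth factors and semaphorins (chr1:62797828-62798326), with 2.01 in normoxia and then 8.92, 15.5 and 20.7 at 36, 48 and 72 h. The third lay in an intron of Bid, a pro-apoptotic gene of the BCL-2 family (chr6:120863739-120864197), with 5.20, 15.5 and 19.4 at 36, 48 and 72 h. In both, the values were in the order of time from 36 h on. The promoter region of Kdm3a, a histone demethylase known as a HIF target (chr6:71558934-71559447), had 4.10, 2.62, 19.1 and 14.9 at 24, 36, 48 and 72 h. Another promoter region of Kdm3a was shared, so that the late-only region was an addition to a promoter open throughout.

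The others lay nearest to Cdk5r2, Rbfox1, Banf2, BC005537, Gpr37l1 and Trpv6. The region near Trpv6, an epithelial calcium channel (chr6:41593181-41593738), had 4.97, 4.80, 11.9 and 23.9 at 24, 36, 48 and 72 h. The region near Banf2 (chr2:143949083-143949581) had 7.35 in normoxia, 4.47 in the 24 h list, and then 17.2 and 13.5 in the late lists. It was not called in the 36 h list. The Banf2 region thus had a peak before hypoxia and none in the early lists, while the Trpv6 region had none before 24 h. The region near BC005537 (chr13:24883198-24883607) had 7.96, 12.9 and 15.3 at 36, 48 and 72 h.

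**Figure D3:**
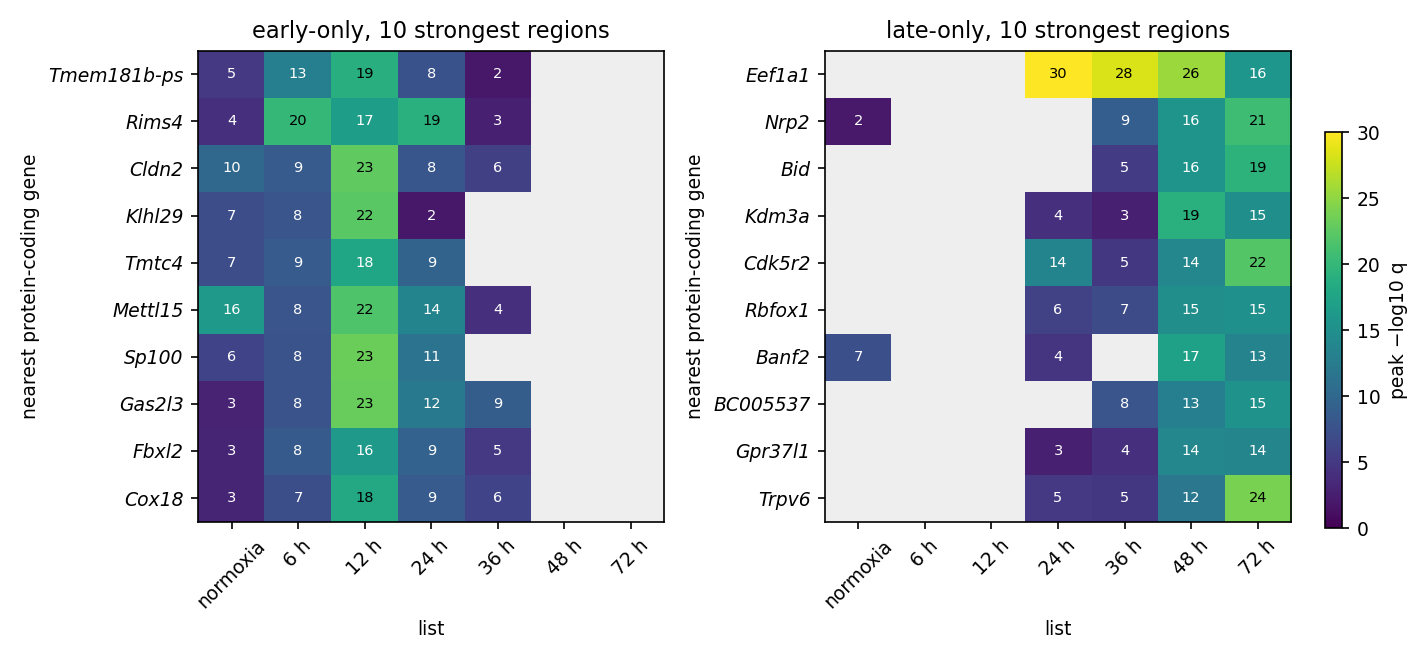
Peak −log10 q (colour and printed value, rounded) in the 7 lists (columns) for the 10 strongest early-only regions (left) and the 10 strongest late-only regions (right), named by the nearest protein-coding gene; pale cells hold no peak. The early-only region in an intron of Gm2792 is named there for its nearest gene, Tmem181b-ps. All 10 early-only regions have a normoxia peak and 2 of the 10 late-only regions do.

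Early-only regions lay at promoters more often than late-only regions. Within 1 kb of the start of a protein-coding gene were 168 early-only regions (13.7%, interval 11.8 to 15.8%) and 245 late-only regions (8.62%, 7.62 to 9.72%), beside 15.6% of all regions and 27.1% of shared ones. Within 5 kb the shares were 25.0% and 20.5%. Introns held 36.5% and 39.2% and intergenic DNA 47.3% and 49.2%. The median width was 372.5 bp and 369 bp, against 740 bp for shared regions, and the median GC content around the summit was 48.8% and 47.3%. The promoter share was thus the main difference in position, and width did not separate the groups. The promoter share was not taken at equal list length or with lists left out, so that its dependence on a single list is unknown.

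The 10 strongest early-only promoter regions all held peaks in normoxia, at 24 h and at 36 h, and were missing only from the late lists. They belonged to A230083G16Rik, Fam195b, Mafg, Lsm2, Nt5m, Nploc4, Dand5, Gapvd1, Myo1c and Zswim5. The promoter region of Mafg, a small Maf protein that pairs with NRF2 (chr11:120494759-120495162), had a −log10 q of 2.82 in normoxia and then 8.403, 12.2, 6.46 and 3.98 at 6, 12, 24 and 36 h. The region at Lsm2, a subunit of the ring that binds U6 small nuclear RNA (chr17:35118635-35119259), had 8.22, 9.47, 11.7, 7.60 and 10.9. By −log10 q Mafg was highest at 6 h and 12 h, while Lsm2 at 36 h was still above its 6 h value. By fold enrichment Mafg had 3.94, 4.84 and 4.29 at 6, 12 and 24 h, so that 24 h was above 6 h. Lsm2 by fold was highest in normoxia, with 6.75 against 5.41 and 6.59 at 6 and 12 h. For 3 of the 10 genes another promoter region was shared, which was the case for Mafg and not for Lsm2. Within 100 bp of the summit, 8 of the 10 held the SP1 motif GGGCGG and 6 a short HIF core (ACGTG or GCGTG). In the 10 strongest late-only promoter regions these counts were 1 and 0. The shares of both motifs over promoter regions as a whole were not taken, so that these counts have no background beside them.

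Of the 10 strongest late-only promoter regions, 1 held a peak in normoxia, 5 and 9 at 24 and 36 h. They belonged to Eef1a1, Kdm3a, Clec12a, Stap1, G430095P16Rik, Bst1, Mocs1, Samsn1, Rapgef2 and Tbxas1. The region 330 bp from the start of Stap1, a signalling adaptor (chr5:86515813-86516309), had 6.12, 18.7 and 9.78 at 36, 48 and 72 h. The region at Bst1, an ectoenzyme (chr5:44210125-44210700), had 11.2 and 9.66 at 48 and 72 h and no peak in any other list. Of the 8 immune markers, among them Ptprc, Cd3e and Itgam, none had an early-only or late-only promoter region and 5 had no promoter peak in any of the 4 lists. Of the other 3, Cd14 and Csf1r had one in all 4 lists and Sfpi1, which encodes the myeloid factor PU.1, had one at 48 h alone. Of the 10 epithelial markers, 9, Epcam among them, had a promoter peak in all 4 lists, and of the 7 stromal and endothelial markers 1 did and 4 had none. Marker promoters of the labelled cell type were thus open at both ends of the course.

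Samsn1 was also among the genes with the most late-only regions. Counting regions whose nearest start lay within 100 kb, Bcas1 had 6 late-only regions, Samsn1 and Sgms1 had 5 each, and 16 genes, Ank and Bcar3 among them, had 4. The Samsn1 regions had a −log10 q between 2.28 and 10.8 at 48 h and between 3.24 and 10.7 at 72 h. The one at the promoter (chr16:75909135-75909735) had 3.66, 7.53, 10.8 and 8.83 at 24, 36, 48 and 72 h. None of the 5 had a peak at 6 h or 12 h, by the rule, and 1 had a normoxia peak. Early-only regions gathered less: 4930467E23Rik, Adamtsl3, Fam129a and Runx1 had 3 each, and 53 genes had 2. The 3 regions of Runx1, a transcription factor of blood and epithelium, all held a normoxia peak, with −log10 q of 5.02, 9.35 and 6.01, and all 3 held an AP-1 motif. Within 10 kb of another region of the same kind lay 7.60% of late-only and 3.43% of early-only regions, beside their different numbers.

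The 21 gene lists on hypoxia, stress, invasion and cell identity held 210 genes with an annotated start. At their promoters little separated early from late: 158 (75.2%) had a promoter peak in all 4 lists, against 48.1% of all 22238 protein-coding genes, and 28 had none. An early-only promoter region was found for 4 genes (1.90%, against 0.796% of all genes) and a late-only one for 7 (3.33%, against 1.14%). In only 2 of these 11 genes, Slc2a3 and Cxcl2, was there no other promoter peak in the early lists, and these 2 were the only genes of the lists with a promoter peak in both late lists and in neither early list. Npas2 and Sfpi1 had one at 48 h and in none of the other 3 lists.

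The glucose uptake and glycolysis list (20 genes) held 3 of the 11. Slc2a3, the glucose transporter GLUT3 (chr6:122751158-122751604), had a −log10 q of 3.47 in the 24 h list and of 3.62 and 5.32 in the late lists, and was not called in the 36 h list. Pgk1, phosphoglycerate kinase of glycolysis (chrX:103383133-103383468), had a late-only region 631 bp from a start, with 3.601, 5.19, 9.80 and 7.53 at 24, 36, 48 and 72 h, while its other promoter region was shared. Pfkfb3, which makes an activator of glycolysis (chr2:11422240-11422571), had an early-only region with 4.80, 4.71, 28.3 and 4.36 at 6, 12, 24 and 36 h. Its peak was thus highest between the early and the late lists, and a second promoter region was shared. In 19 of the 20 genes each of the 4 lists had a peak at the promoter.

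In pH control, Car9, the HIF target carbonic anhydrase 9 (chr4:43521466-43521824), had a late-only region at its start with 4.16, 2.57, 4.28 and 10.7 at 24, 36, 48 and 72 h. Its summit held 11, 10, 13 and 23 reads. Another Car9 promoter region held a 12 h peak, so the gene was not closed in all early lists. The window of the late-only region held a short HIF core.

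Of the cytokines, Cxcl2 and Cxcl5, both neutrophil-attracting chemokines, had late-only promoter regions. Cxcl5 (chr5:91186843-91187550) had 11.1 and 4.19 at 48 and 72 h and no peak elsewhere. Cxcl2 (chr5:91332456-91332848) had 3.25, 3.34 and 1.67 at 36, 48 and 72 h, from 19, 22 and 20 reads, and was near the limit throughout. Late-only regions were also found at Ankrd1, a target of YAP and TEAD, with 3.61 and 1.84 at 48 and 72 h, and at Mxi1, a MYC antagonist, with 3.77 and 2.22. Both genes had another promoter region that was shared.

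Early-only promoter regions were found at Dbp, a clock output factor, at Smad2, a transducer of TGF-beta signals, and at Trp53, the tumour suppressor p53. The Trp53 region (chr11:69394858-69395160), 951 bp from the start, had 4.10, 11.7, 9.65 and 5.19 at 6, 12, 24 and 36 h. The Smad2 region (chr18:76401875-76402173) had 4.76, 6.18 and 1.84 at 6, 12 and 24 h. The Dbp region (chr7:52962149-52962479) had 3.93, 1.94, 7.15 and 4.23 from 6 h to 36 h. None of the 3 had a normoxia peak in the region, and each gene had another promoter region that was shared.

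Regions of both kinds, those at promoters included, were also counted by their nearest gene. Within 100 kb of a start lay 1009 early-only and 2326 late-only regions, so that 69.7% of these 3335 were late-only. In angiogenesis (11 genes) 10 of 11 regions were late-only, and in cytokines (12 genes) 9 of 10 were. TGF-beta had 5 late-only and 1 early-only region, pH control 3 and 0, TEAD and YAP 3 and 0, and mesenchymal genes 3 and 0. The clock list had 1 late-only (Npas2) and 3 early-only regions (Dbp, Tef and Cry2), and glycolysis 4 and 3. HIF and oxygen sensing had 1 and 2, HIF targets of mitophagy and stress 3 and 1, invasion 3 and 2, E2F and cell cycle 3 and 2, FOX genes 2 and 0, epithelial markers 1 and 0, stromal markers 3 and 1, AP-1 genes 1 and 1, stress response 0 and 1, and factors named by the study 2 and 2. Matrix hydroxylases and C/EBP genes had none of either. Over all lists there were 55 late-only and 21 early-only regions, a share close to that of all genes, and the counts per list were small.

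The late-only regions of angiogenesis genes lay at both ligands and receptors. Among ligands, Vegfa (chr17:46164562-46164835, intron) had a −log10 q of 5.21, 4.31 and 4.09 at 36, 48 and 72 h, and Vegfc (chr8:55164961-55165256, intron) had 4.61 and 4.70 at 48 and 72 h. Among receptors and co-receptors, Nrp1 (chr8:130887114-130887459, intron) had 5.46 and 11.1 at 48 and 72 h, and Flt1 (chr5:148570560-148570846) had 6.89, 2.67 and 1.99 at 24, 48 and 72 h. Apart from Nrp2, no late-only region of these genes had a normoxia peak. The Kdr region (chr5:76329443-76329939, exon) had 6.42, 8.0 and 2.13 at 36, 48 and 72 h, although Kdr had no promoter peak in any of the 4 lists. Nrp2 itself had 2 late-only regions and 1 early-only region (chr1:62829946-62830249) with 3.10 in normoxia, 2.48 and 2.37 at 6 and 12 h. Angpt2 had 2 late-only regions and Adm 1.

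Of the cytokine genes, Csf1, the growth factor of macrophages, had 3 late-only regions. Their −log10 q at 48 h was 2.28, 2.66 and 7.05, and at 72 h 4.50, 2.28 and 3.64. Ccl20 (chr1:83098432-83098735), a chemokine for CCR6-bearing cells, had 4.12 and 7.56 at 48 and 72 h, and Cxcl1 (chr5:91290923-91291217) had 2.62, 3.05 and 9.55 at 36, 48 and 72 h. The single early-only region of the list lay in an intron of Lif (chr11:4162018-4162288), with 2.08, 3.48 and 4.49 at 6, 12 and 24 h. Of the 9 late-only regions of the list, 2 held a 24 h peak and none a normoxia peak.

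Motif content around the summit differed between early-only and late-only regions. Within 100 bp of the strongest summit, the C/EBP motif lay in 6.93% of early-only regions (interval 5.58 to 8.50%) and 13.0% of late-only regions (11.8 to 14.3%). Over all regions its share was 8.69%, and over shared regions 7.85%, so that late-only regions stood above both. Some patterns with an early peak stood above both as well, such as 6, 48 and 72 h (13.4% of 292 regions) and 12 and 72 h (11.1%). Others did not, such as 12 and 48 h (8.08%) and 6, 12 and 48 h (6.67%). The FOX motif (TGTTTNC) lay in 15.7% of early-only (13.7 to 17.8%) and 20.5% of late-only regions (18.98 to 21.98%), beside 16.6% of all. The C/EBP and FOX shares were higher in late-only regions in all 11 settings examined, among them regions over 1 kb from a start, regions of 45 to 50% GC, equal list length and each list left out in turn. For C/EBP they were 6.78% and 11.3% at equal list length, and 8.26% and 13.1% in the GC band. Regions with a normoxia peak gave 6.14% and 10.5%, and those without one 7.52% and 13.4%.

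AP-1 went the other way, with 32.7% of early-only (30.1 to 35.4%) and 21.8% of late-only regions (20.3 to 23.4%), beside 32.3% of all regions. Late-only regions were thus low in AP-1 motifs, while early-only regions were near the share of all regions. The order turned without the 12 h list, with AP-1 shares of 19.7% early and 31.5% late. At equal list length they were 36.7% and 35.0%, and the difference was small. Regions with a peak at 12 h alone held AP-1 in 29.9%, those at 48 h alone in 23.9%, those at 72 h alone in 15.1% and those at 6 h alone in 12.9%. Regions of the 6 h and 72 h lists alone, one early and one late, were thus the lowest.

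The SP1 motif lay in 12.0% of early-only and 6.16% of late-only regions, beside 12.0% of all. The order turned for regions over 1 kb from a start (4.91% and 5.16%), in the GC band (2.06% and 3.77%) and without the 6 h list (5.40% and 6.50%). Short HIF cores lay in 23.4% and 19.7%, beside 24.2% of all regions, and the longer core in 2.85% and 1.90%, beside 2.20%. The intervals of the longer core overlapped (1.996 to 3.95% and 1.43 to 2.47%). The NRF2 motif (TGACNNNGC), whose letters overlap those of AP-1 sites, lay in 14.5% and 10.3%, beside 12.9%, and the STAT motif (TTCCNGGAA) in 3 early-only regions (0.245%) and 33 late-only regions (1.16%), beside 0.96%. CTCF, searched by its consensus, lay in 2.94% and 2.57%, beside 2.79%. A motif match is a description of letters and not a measure of binding.

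**Figure D4:**
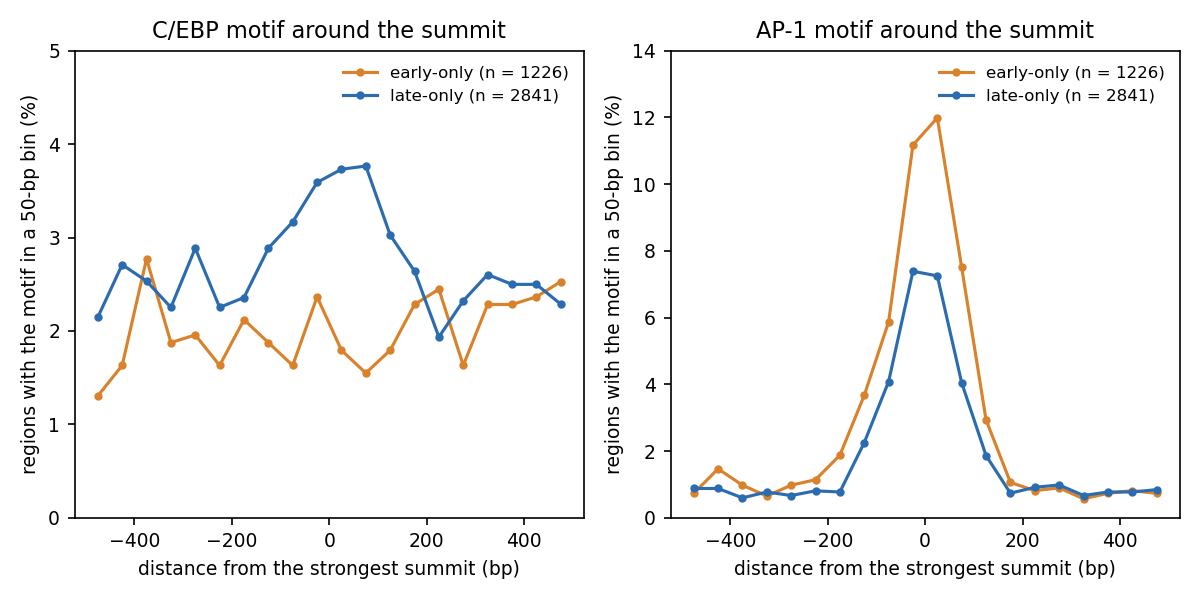
Percentage of regions with the C/EBP (left) or AP-1 (right) motif in each 50-bp bin (y axis) by distance from the strongest summit (x axis, bp), for 1226 early-only (orange) and 2841 late-only (blue) regions; the y axes differ. C/EBP reaches 3.77% near late-only summits and AP-1 reaches 12.0% near early-only and 7.39% near late-only summits.

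The position of the motifs differed as well. Around late-only summits the share of regions with a C/EBP motif per 50-bp bin was between 3.17% and 3.77% in the 4 bins within 100 bp, and between 1.94% and 3.03% further out. Around early-only summits it lay between 1.31% and 2.77% at all distances with no rise at the summit. AP-1 rose at the summits of both kinds, to 12.0% and 7.39%, from at most 1.47% beyond 200 bp. In both kinds AP-1 was thus centred on the summit. C/EBP rose there only slightly in late-only regions and not in early-only ones. The early-only windows of Cldn2, Fbxl2 and Cox18 and the late-only windows of BC005537 and Trpv6 printed above hold such motifs and were chosen for that.

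Signal within the 39795 shared regions was compared by percentile. In the 6, 12, 48 and 72 h lists, a region's highest fold enrichment was ranked among all merged regions with a peak in that list. Ranks ran from 0 (lowest) to 100 (highest). The normoxia, 24 h and 36 h percentiles given below were ranked among all peaks of the list, with the highest taken per region. They are thus on a slightly different scale. The late less the early mean had a median of 1.69 points and ran from −19.7 to 24.7 between its 5th and 95th percentiles, and 61.8% of shared regions were within 10 points. Ranks taken among shared regions alone, which give every list the same mean by construction, had a median difference of −0.00817. Both late percentiles exceeded both early ones in 7214 regions (18.1%) and the reverse held in 5182 (13%). At equal list length these were 4728 and 4242, and with ranks among shared regions alone 6902 and 6577, so that most of the late excess was not seen there. Across shared regions the 6 h list was the least like the others (Spearman's rho of 0.726 with 12 h, 0.733 with 48 h and 0.733 with 72 h), and the 12 h list was more like the 48 h list (0.850) than like the 6 h list. These correlations are across regions, which are not independent replicates.

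Gaps of 20 points or more between the lower list of one end and the higher list of the other were rare. They were found in 319 regions that were higher late (0.802%) and 273 that were higher early (0.686%). At the limit, the smallest gap inside was 20.03 points late and 20.04 early, and the largest outside was 19.9955 and 19.9947. By the rule these regions differ between early and late, and their values in the other lists are the part that the rule did not use. Regions higher late had a median percentile of 39.7 in normoxia and then 20.2, 31.7, 47.7, 48.5, 62.7 and 64.3 from 6 h to 72 h. Regions higher early had 46.2, 58.3, 63.7, 51.0, 47.6, 24.0 and 19.8. The median over all shared regions also moved between lists, with 67.7, 57.5, 73.9, 71.5, 68.8, 71.5 and 66.6 in the same order. Regions higher late lay below it in every list, and regions higher early lay above it at 6 h only. The medians of the lists not used were taken over regions with a peak there, which leaves out the regions below the limit. Of the 319 regions higher late, 240 had a peak in normoxia (75.2%), 294 at 24 h and 296 at 36 h. Of the 273 higher early, 244 had one in normoxia (89.4%), 266 at 24 h and 249 at 36 h. Over the regions with a peak, and with ranks among peaks, the 24 h and 36 h medians of both sets lay between the early and the late ones.

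**Figure D5:**
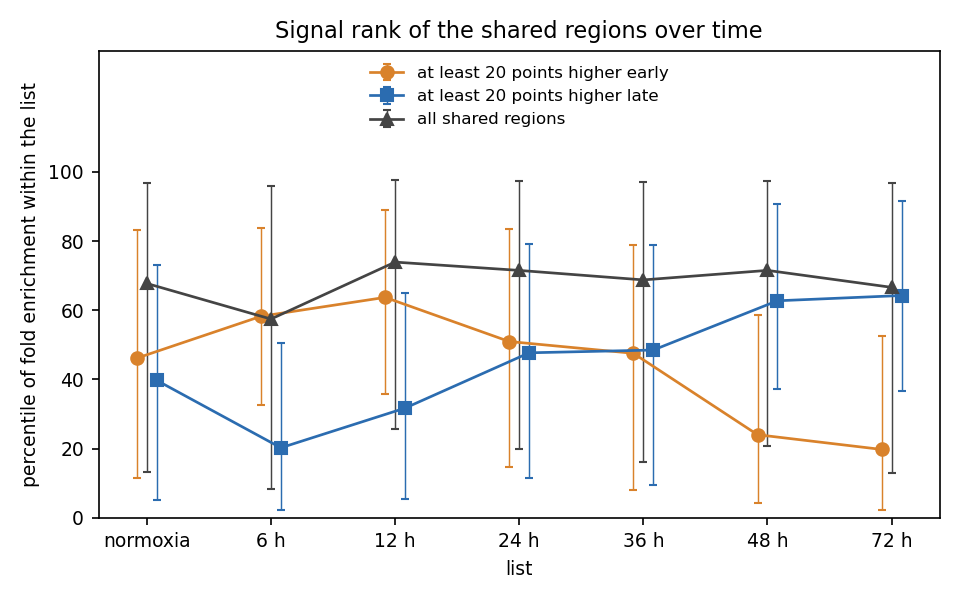
Median percentile of fold enrichment within each list (y axis) in the 7 lists (x axis) for the 319 shared regions at least 20 points higher late (blue squares), the 273 at least 20 points higher early (orange circles) and all 39795 shared regions (dark triangles); error bars run from the 5th to the 95th percentile of the regions. The 6, 12, 48 and 72 h values chose both sets, and at 24 h and 36 h their medians, over the regions with a peak there, lie between 47.6 and 51.0. Ranks are among merged regions at 6, 12, 48 and 72 h and among all peaks of the list in normoxia, 24 h and 36 h.

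These sets differed in place in the same direction as the early-only and late-only regions. Promoters held 34.8% of regions higher early (interval 29.2 to 40.8%) and 12.2% of those higher late (8.84 to 16.3%), beside 27.1% of shared regions. The FOX motif lay in 10.6% of regions higher early and 25.1% of those higher late, beside 15.4% of shared regions, and away from promoters in 12.4% and 26.1%. FOX was thus higher late in the shared regions also, which are other regions of the same lists. The C/EBP motif lay in 6.96% and 10.7%, beside 7.85% of shared regions, with the order turned in the GC band (9.62% and 5.33%). AP-1 lay in 28.9% and 34.5%, both below the 37.4% of shared regions. This was the opposite order to that of early-only and late-only regions. Over 1 kb from a start AP-1 lay in 42.7% and 38.2%.

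The largest gap higher late, 55.8 points, lay in an intron of Tulp4 (chr17:6180385-6180815), with percentiles of 6.91, 2.23, 12.4, 26.9, 62.7 and 62.9 from 6 h to 72 h and no normoxia peak. From 12 h on its rank followed time. The other 9 lay in or nearest to D7Ertd443e, 1110002B05Rik, Zfp703, Cdyl, Ebf2, Galc, Klf13, Trim32 (in an intron of Astn2) and Tasp1, with gaps from 43.6 points up. The region 192426 bp from Zfp703, a zinc finger gene amplified in human luminal breast cancers (chr8:27894858-27895382), had 28.4 in normoxia and then 22.4, 23.3, 19.8, 48.5, 75.9 and 71.4. None of the 10 was a promoter, and 7 held an AP-1 motif, beside 37.4% of shared regions and 4 of the 10 largest gaps higher early.

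The largest gap higher early, 52.0 points, lay at the promoter of Dennd1a, an exchange factor for Rab GTPases (chr2:38142331-38143080). Its percentiles were 41.7 in normoxia and then 64.0, 62.6, 53.4, 61.2, 9.85 and 10.7 from 6 h to 72 h. The promoter of Myb, a transcription factor of proliferating progenitor cells (chr10:20880571-20881058), had 4.67, 49.3, 48.6, 30.1, 30.5, 1.46 and 3.84. Its rank was thus low in normoxia, high early and low again late. The promoter region of Ctnnb1, which encodes beta-catenin (chr9:120842177-120843028), had 83.6, 81.4, 84.7, 84.1, 78.3, 41.9 and 40.6, and so ranked lower after 36 h only. The others were at the promoters of Sh2b1 and Usp24 and in or near Prtg, Ptprf, Plcb4, Rap2b and Rad51l1.

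Of the listed genes, 3 had a promoter region with a gap of this size, all higher early. Jund, a Jun protein of AP-1 (chr8:73222222-73223189), had a gap of 27.2 points, and its −log10 q was 16.4 in normoxia and then 18.7, 39.6, 24.0, 18.2, 11.2 and 12.4 from 6 h to 72 h. Cdkn1b, the cell cycle inhibitor p27 (chr6:134869720-134870829), had a gap of 20.6 points, and Foxp1, a forkhead factor (chr6:98977754-98979139), one of 20.3 points. The Foxp1 values were 7.78 in normoxia, then 12.8, 16.3, 17.98, 9.23, 7.24 and 6.51. These promoters stayed open throughout and ranked lower in both late lists. No promoter region of the lists was higher late by this rule, beside 40 genes of all 22238 that were and 104 that were higher early.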

How the data were processed

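Accessible chromatin of 4T1 cells was measured by bulk ATAC-seq on fixed cells, in 14 samples of 7 groups. The members of the comparison and the gene and motif lists were chosen with earlier results of these data known.

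Per the submitters' processing notes and the study's methods, the reads were aligned to mm9 with Bowtie2 2.1.0, and duplicates were removed with Picard 1.79. The methods also give adapter trimming, a quality filter and removal of mitochondrial reads. The authors called peaks with MACS2 on the pooled samples of each group, and the lists reach down to the q of 0.05 that the labels give, whereas the study's methods state a stricter q for bulk peaks. The deposited columns used were fold enrichment (the ratio at the summit over the local background of the same reads), −log10 p and −log10 q of each summit, and the summit offset in bp, a plain position. The total depth of each sample is unknown, and the authors' choices set which weak peaks are listed. A missing peak is a call below that limit and not a measured closure.

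From these lists, peaks that share a base were merged over the 6, 12, 48 and 72 h lists, and a list was present in a region where any of its peaks overlapped. Summit reads and background were recovered from the fold and the −log10 p of each summit, and solved for 100% of them. Regions were placed by the mouse genome NCBIM37 (mm9) and its GENCODE vM1 annotation, with a promoter within 1 kb of a protein-coding start, and the nearest gene was counted within 100 kb. Motif searches took both strands of the 100 bp to each side of a region's strongest summit. The regions named were the 10 strongest early-only and late-only ones by mean rank of −log10 q, the 10 strongest at promoters, the 10 largest gaps in each direction, the 5 genes with the most regions (ties in alphabetical order), and listed genes with a promoter in an early-only, late-only or 20-point region. Other listed genes near such regions were named after their values were seen. Tables were handled with pandas 2.3.3 and numpy 2.4.6, intervals with scipy 1.17.1, sequences with pysam 0.24.0 and plots with matplotlib 3.10.9, in Python 3.11.15, and the steps were checked on simulated data.

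Alternatives were a stricter q, the 40000 strongest peaks of each list, joining peaks up to 200 bp apart, 250 bp around summits, absence within 1 kb, autosomes, other ranks, and each list left out. The GC band, the split by normoxia and 2 of the motif settings (equal list length and lists left out) were chosen after seeing the data. No value was tested, since each list pools its samples.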

Additional observations from a re-analysis of the deposited data

How the results depend on the processing

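No paired analysis was possible because each list pools both replicates of its group and carries no replicate number. Late-only regions outnumbered early-only ones in 11 of 12 settings, the exception being without the 6 h list, and by 1633 to 1608 only with the 40000 strongest peaks of each list. The counts (early-only and late-only) were 715 and 1817 at a −log10 q of 5 or more, and 705 early-only regions had no normoxia peak. Leaving out each list in turn gave 1765 to 15628 early-only and 3140 to 14006 late-only regions, 11992 to 21897 shared regions higher late and 8706 to 21767 higher early, and a median late less early difference of −2.87 points (without the 6 h list) to 6.23 points (without the 12 h list). That median was 1.90 at a −log10 q of 2 or more, 1.84 at 5 or more, 0.0985 with the 40000 strongest peaks and −0.00817 when ranked among shared regions, and 4728 shared regions were higher late with the 40000 strongest peaks. More shared regions were higher late than early in 9 of 11 settings, and not without the 6 h or the 48 h list (11992 and 12246). Normoxia, 24 h and 36 h shares of early-only regions were 65.5, 81.4 and 59.3% at a −log10 q of 5 or more and 52.2, 61.3 and 43.0% with peaks within 1 kb counted, and with the 40000 strongest peaks those of normoxia and 36 h were 55.1 and 46.3%. For late-only regions they were 15.8, 39.3 and 36.4% at 2 or more, 33.4, 67.1 and 60.8% at 5 or more, 30.6, 40.3 and 47.3% with the 40000 strongest peaks and 23.8, 45.8 and 43.5% within 1 kb. The causes of these moves were not tested, except that a stricter limit keeps stronger peaks by construction. Of the motif and promoter shares, 49 stayed within the spread and 41 moved. C/EBP and FOX kept their order in 11 of 11 settings, AP-1 in 10 (not without the 12 h list) and SP1 in 8 (not in the GC band, over 1 kb from a start or without the 6 h list). The depth of each sample is unknown, and the median summit of both kinds held 15 or 16 reads.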
